A study of Mus musculus with 6 samples.

Results

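The genes described here are 10 feedback inhibitors of the ERK pathway, Dusp1, Dusp2, Dusp4, Dusp5, Dusp6, Dusp10, Spry1, Spry2, Spred1 and Spred2, chosen by name from the 55487 genes of the count table. They were measured by RNA-seq in LSKs, the lineage-negative Sca-1+ c-Kit+ bone marrow fraction that holds hematopoietic stem cells and early progenitors. There were 3 wild type and 3 Tespa1-/- libraries, each from male mice of 8 to 10 weeks, collected at day 13 after a sublethal total body irradiation of 5.0 Gy. The Tespa1-/- mice carried the constitutive B6.129S-Tespa1tm1Smoc allele on a C57BL/6 background, an allele that is not restricted to LSKs, and the wild type mice were littermates according to the labels. All 6 libraries came from irradiated mice and no unirradiated library was analysed here, so the comparison gives the genotype difference after irradiation and not the response to irradiation. The labels do not say whether the libraries of a group came from separate mice, so the p-values measure the spread between these libraries, which may be technical.

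Growth factor receptors signal through RAS, RAF and MEK to the ERK kinases, and active ERK induces genes whose products switch the pathway off again. The dual-specificity phosphatases (DUSPs) remove both activating phosphates from MAP kinases, while Sprouty and SPRED proteins act further upstream, between the receptor and RAF. Because their transcription follows ERK activity, the mRNAs of several of these genes are widely used as readouts of ERK output, and in hematopoietic cells the same pathway carries signals from KIT, FLT3 and cytokine receptors.

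All 10 genes passed the filter on low counts, as did 15332 genes of the table. In Tespa1-/- LSKs, 7 of the 10 were called lower and none higher. A call required more than a 1.5-fold difference and an adjusted p below 0.05 (edgeR quasi-likelihood test, Benjamini-Hochberg adjustment over all genes tested). All 10 log2 fold changes were negative, so none was higher by unadjusted p either. Among all tested genes 19.2% were called lower and 14.0% higher. By p alone, 9 of the 10 were lower, against 31.8% of all genes. The median log2 fold change of the 10 was -0.89 and that of all tested genes was about 0. In normalized read counts (CPM, counts divided by the library size, which was scaled by TMM), the Tespa1-/- libraries lay below the wild type libraries without overlap for 9 of the 10 genes, against 34.6% of all tested genes in that direction. The exception was Spry2. These are bulk samples, in which fewer cells of a type and less RNA per cell cannot be told apart.

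**Figure D1:**
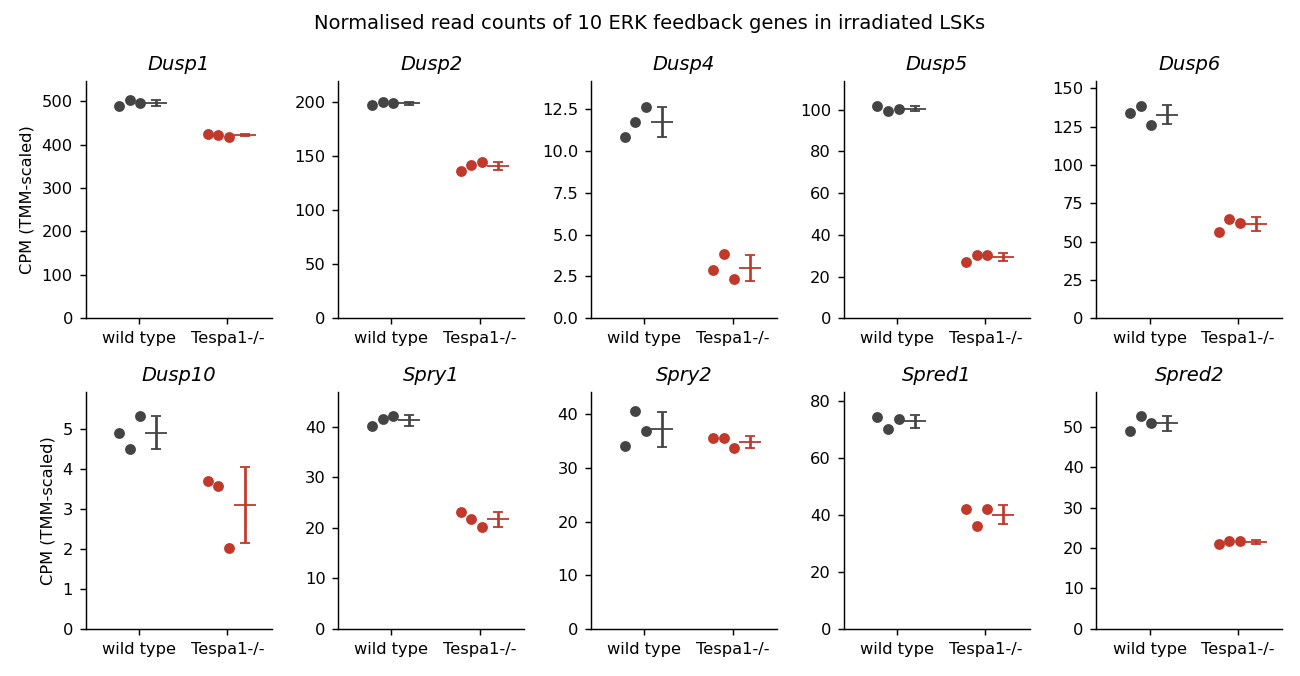
Normalized read count (CPM, TMM-scaled, linear axis from 0) of each gene in every library; points are libraries, and the bar beside them is the mean ± SD (n = 3 per group). For every gene except Spry2 the 3 Tespa1-/- points lie below the 3 wild type points. They lie at 418.9 to 424.0 against 489.6 to 502.3 CPM for Dusp1, and at 2.339 to 3.857 against 10.85 to 12.61 CPM for Dusp4.

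Some facts of the whole series stand beside these results. The libraries held 12856630 to 30576981 counts. Tespa1, the deleted gene, had 626, 1033 and 533 counts in the wild type libraries and 261, 207 and 176 in the Tespa1-/- libraries, a log2 fold change of -1.23 (SE 0.07, adjusted p = 7.0e-06), so transcript from the locus remained, and the sources used here do not give the exons removed. Of 9 LSK marker genes, 7 were called lower, and their summed level was 1268 to 1297 CPM in wild type and 728.6 to 747.9 CPM in Tespa1-/- libraries, with Kit, Flt3 and Cd34 at 332.7, 225.8 and 513.9 CPM in wild type and 169.6, 112.1 and 300.7 CPM in Tespa1-/- LSKs. Ly6a, which encodes Sca-1, was at 38.15 to 63.81 CPM in the 6 libraries and was not called (log2 fold change -0.32). When fold changes were corrected for gene length, 6 of the 9 were called lower, with Kit at -0.56 and Cd34 at -0.46 not called and Ly6a at -0.64 (adjusted p = 0.00936) called. Of 10 neutrophil and granule genes, 8 of the 9 tested were called higher, and Ly6g was at 0 in every wild type library. Their summed levels were 9468 to 10170 CPM in wild type and 15400 to 15850 CPM in Tespa1-/- libraries. The largest part of these sums was Mpo, at means of 7524 and 10500 CPM, which was not called. S100a8 and S100a9 rose from means of 2.742 and 0.905 to 88.41 and 114.6 CPM. Ngp, Ltf and Camp rose from 0.252, 0.173 and 0.196 to 71.98, 48.73 and 20.68 CPM. Lcn2, Elane and Prtn3 had log2 fold changes of 3.03, 0.996 and 1.03. Summed B lineage markers were 47.73 to 51.2 and 34.84 to 38.64 CPM, with Ms4a1 at 0 in all Tespa1-/- libraries from 2, 0 and 3 counts in wild type. Summed T lineage markers reached at most 3.579 and 1.694 CPM. Cd3e had 8, 7 and 4 counts in wild type and 0 in all Tespa1-/- libraries. Cd3d (mean 0.116 and 0.173 CPM) and Cd3g (0.053 and 0.147 CPM) went the other way, and none of these CD3 genes had enough counts to test. Summed monocyte and macrophage markers were 485.6 to 519.8 and 612.4 to 694.6 CPM, where Ly6c2 was called higher (log2 fold change 0.88) and Csf1r (-0.65, or -0.45 and not called after the length correction) and Cx3cr1 (-1.44) lower. Summed erythroid markers were 17.84 to 18.41 and 29.52 to 32.58 CPM, where Hba-a1 (log2 fold change 2.11) and Hbb-bs (1.63) were called higher and Klf1 (-0.98) and Epor (-0.90) lower. Summed megakaryocyte markers were 69.42 to 77.81 and 58.87 to 61.65 CPM, and summed mast cell and basophil markers 38.52 to 40.66 and 36.78 to 44.33 CPM. Of the mast cell and basophil markers, Prss34 (log2 fold change -2.51) and Ms4a2 (-1.33) were called lower. Mcpt8 (0.58) and Cpa3 (-0.42, or -0.70 and called lower after the length correction) were not called. Fold changes also ran with gene length, with a Spearman rho of -0.62 over 10029 genes, from a median of 0.64 in the shortest decile to -0.55 in the longest. The part of the marker genes in the feedback genes' differences was not tested. A fit with a length correction was run for every gene, which brought rho to -0.09, and its values are given where they change the call of 1 of the 10 feedback genes or of a pathway gene named with its value.

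Dusp1 and Dusp2 encode nuclear phosphatases of broad range that act on ERK, JNK and p38 and are themselves immediate early genes. Dusp1 (ENSMUSG00000024190, GRCm38 chr17:26505590-26562128, minus strand) was the most abundant of the 10, at 489.6, 502.3 and 495.5 CPM in wild type and 424.0, 422.7 and 418.9 CPM in Tespa1-/- libraries. The groups did not overlap, and the difference was small and well resolved, with a log2 fold change of -0.23 (SE 0.02, adjusted p = 1.1e-04). It passed by p and not by fold, since the Tespa1-/- level was 85.1% of wild type. Dusp2 (ENSMUSG00000027368, chr2:127336159-127338376, plus strand), a phosphatase mainly of hematopoietic cells, had 197.6, 200.1 and 199.1 CPM in wild type and 136.5, 142.2 and 144.4 CPM in Tespa1-/- libraries. Its groups were apart too, and its log2 fold change of -0.50 (SE 0.03, adjusted p = 1.6e-05, 95% interval -0.57 to -0.42) stayed under the fold of 1.5. With the length correction it was -0.71 and called lower.

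Dusp4 and Dusp5 also encode nuclear phosphatases, Dusp5 one that is specific for ERK, which it binds and retains in the nucleus. They showed the largest falls of the 10. Dusp4 (ENSMUSG00000031530, chr8:34807297-34819894, plus strand) had 10.85, 11.75 and 12.61 CPM in wild type and 2.877, 3.857 and 2.339 CPM in Tespa1-/- libraries, which rest on 197, 371 and 187 against 49, 56 and 29 counts. The Tespa1-/- level was 26.0% of wild type, with a log2 fold change of -1.95 (SE 0.17, adjusted p = 5.9e-05). Dusp5 (ENSMUSG00000034765, chr19:53529109-53542431, plus strand) had 101.6, 99.22 and 100.2 CPM in wild type and 27.18, 30.31 and 30.32 CPM in Tespa1-/- libraries. Here both groups were tight and far apart, with a log2 fold change of -1.78 (SE 0.05, adjusted p = 1.1e-06). Both genes were called lower in the main fit and in all 20 alternative analyses.

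Dusp6 (ENSMUSG00000019960, chr10:99263231-99267489, plus strand) encodes the cytoplasmic ERK phosphatase and is one of the most used markers of ERK output. It had 133.9, 138.7 and 126.3 CPM in wild type and 56.24, 65.09 and 62.34 CPM in Tespa1-/- libraries. The groups did not overlap, and the log2 fold change was -1.12 (SE 0.06, adjusted p = 8.2e-06), a level 46.0% of wild type. Dusp10 (ENSMUSG00000039384, chr1:184013302-184075636, plus strand) differs in target, since its product acts mainly on JNK and p38. It was the least abundant of the 10, with 4.90, 4.497 and 5.329 CPM in wild type and 3.699, 3.582 and 2.016 CPM in Tespa1-/- libraries, from 89, 142 and 79 against 63, 52 and 25 counts. Its call as lower was the weakest, with a log2 fold change of -0.63 (SE 0.22, adjusted p = 0.0356). Without the third Tespa1-/- library, which was the lowest, the log2 fold change was -0.41 and no longer past the fold, and without any 1 of the wild type libraries the adjusted p was 0.0566 to 0.0952.

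Sprouty proteins are induced by growth factors and interfere with the activation of RAS and RAF, and of the pair measured here 1 was called. Spry1 (ENSMUSG00000037211, chr3:37639947-37644598, plus strand) had 40.14, 41.61 and 42.23 CPM in wild type and 23.25, 21.70 and 20.24 CPM in Tespa1-/- libraries. The groups were apart, with a log2 fold change of -0.93 (SE 0.07, adjusted p = 2.3e-05). Spry2 (ENSMUSG00000022114, chr14:105891947-105896819, minus strand) had 34.02, 40.57 and 36.96 CPM in wild type and 35.52, 35.54 and 33.63 CPM in Tespa1-/- libraries, and here the groups overlapped. Its log2 fold change of -0.09 (SE 0.07, adjusted p = 0.312) had a 95% interval from -0.27 to 0.08, which holds a small difference but not one of the size seen for Spry1. With the length correction Spry2 was at -0.29 (adjusted p = 0.0105), past p and not past the fold.

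SPRED proteins bring neurofibromin, the product of Nf1, to the membrane, where it returns RAS to its inactive state. Both SPRED genes were lower. Spred1 (ENSMUSG00000027351, chr2:117121374-117182279, plus strand) had 74.55, 70.30 and 73.86 CPM in wild type and 41.98, 36.30 and 42.18 CPM in Tespa1-/- libraries, with a log2 fold change of -0.86 (SE 0.07, adjusted p = 3.5e-05). It has the longest exon sequence of the 10, 6784 bases, and the length correction on that quantity moved it to -0.58 (adjusted p = 3.5e-04), just under the fold of 1.5. Spred2 (ENSMUSG00000045671, chr11:19924375-20024026, plus strand) had 49.00, 52.66 and 50.93 CPM in wild type and 20.96, 21.84 and 21.61 CPM in Tespa1-/- libraries. Its groups were tight and apart, with a log2 fold change of -1.25 (SE 0.05, adjusted p = 2.8e-06), and it was called lower in every alternative.

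By family, 4 of 6 DUSP genes, 1 of 2 Sprouty genes and 2 of 2 SPRED genes were called lower. With the length correction the counts were 5 of 6, 1 of 2 and 1 of 2, again 7 in all, against 15.2% of all tested genes called lower and 8.21% higher in that fit. Dusp2 then took the place of Spred1.

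**Figure D2:**
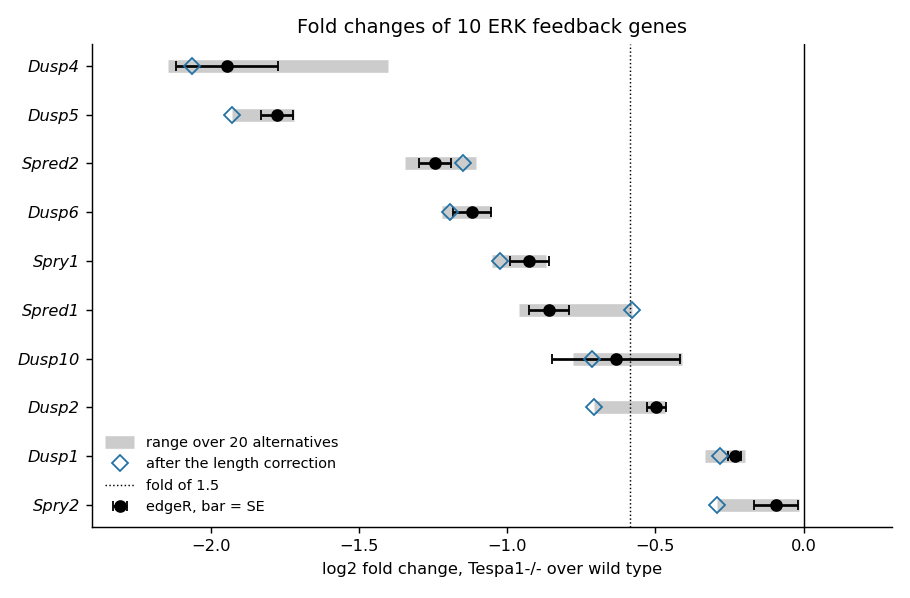
Log2 fold change (Tespa1-/- over wild type) of each gene from edgeR with its SE (black points and bars), the value after the length correction (blue diamonds) and the range over 20 alternative analyses (grey bars). The dotted line marks a fold of 1.5; Dusp4 at -1.95 and Dusp5 at -1.78 lie farthest from 0 and Spry2 at -0.09 nearest, and no grey bar crosses 0.

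The falls were uneven enough to change the make-up of the group. The 10 genes summed to 1136, 1162 and 1143 CPM in wild type and 772.2, 783.0 and 777.9 CPM in Tespa1-/- libraries. Dusp1 alone made up 43.1%, 43.2% and 43.4% of that sum in wild type libraries and 54.9%, 54.0% and 53.9% in Tespa1-/- libraries. The share of Dusp5 was 8.54% to 8.94% in wild type and 3.52% to 3.90% in Tespa1-/- libraries. Per length, in the deposited FPKM (fragments scaled to gene length and library size), wild type LSKs had Dusp2 at 86.7 ± 0.440 and Dusp1 at 83.9 ± 0.966 at the top (SD, n = 3). Below them came Dusp5 at 41.9, Dusp6 at 23.2, Spry2 at 18.4, Spry1 at 12.8, Spred1 at 10.7, Spred2 at 7.51, Dusp4 at 4.43 and Dusp10 at 1.44 FPKM, and no neighbours in this order had overlapping ranges. In Tespa1-/- LSKs Dusp1 at 66.6 and Dusp2 at 57.3 FPKM changed places, and Spry2 at 16.1 FPKM stood above Dusp5 at 11.4 and Dusp6 at 9.96 FPKM, both of which were above it in wild type. Then followed Spry1 at 6.30, Spred1 at 5.48, Spred2 at 2.96, Dusp4 at 1.07 and Dusp10 at 0.850 FPKM, and the ranges of Dusp5 and Dusp6, and of Dusp4 and Dusp10, overlapped.

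The order of levels depends on the length by which counts are divided. The deposited FPKM imply 6107 bases for Dusp1, 5928 for Dusp6 and 7003 for Spred2, where the merged exons of the annotation hold 3311, 3132 and 4619 bases. In CPM per kilobase of merged exon, Dusp1 at 149.7 was above Dusp2 at 99.3 in wild type as well as in Tespa1-/- LSKs (127.4 and 70.4). Dusp6 at 42.5 and Dusp5 at 40.6 then overlapped in wild type, and in Tespa1-/- LSKs Spry2 at 16.7 stood above Dusp5 at 11.8 and below Dusp6 at 19.5 CPM per kilobase. That Spry2 moved above Dusp5 was common to both scales.

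**Figure D3:**
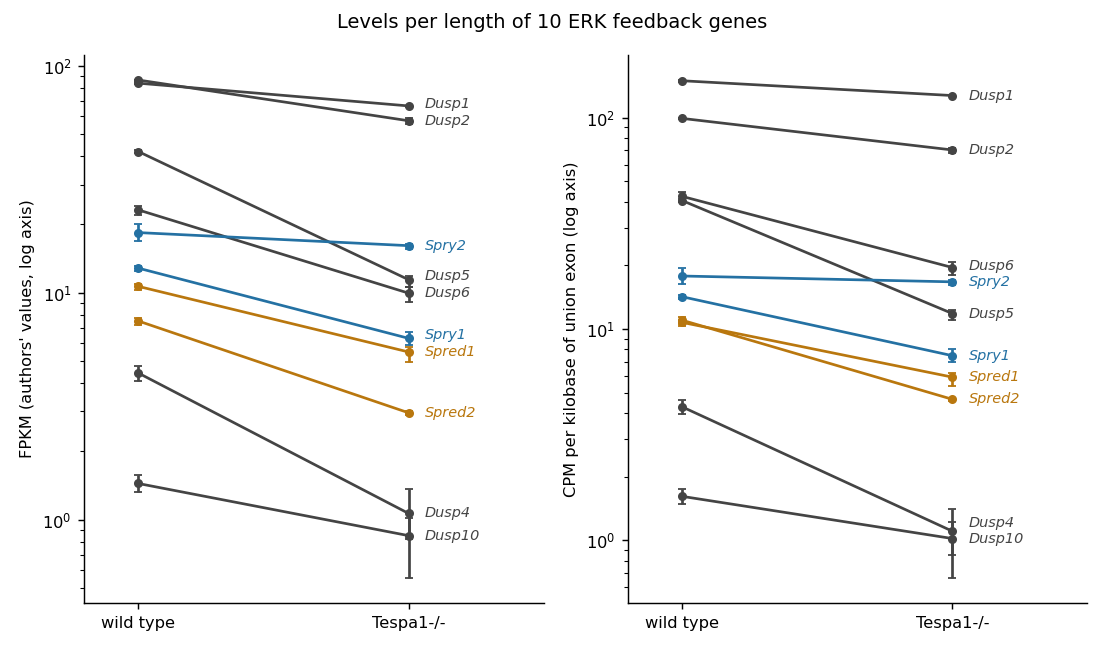
Mean level per length of each gene in wild type and Tespa1-/- LSKs on log axes, in the deposited FPKM (left) and in CPM per kilobase of merged exon (right); bars run from the lowest to the highest of 3 libraries, and DUSP genes are grey, Sprouty genes blue and SPRED genes ochre. The Spry2 line is nearly level and crosses the falling Dusp5 line in both panels, from 18.4 to 16.1 FPKM against 41.9 to 11.4 FPKM for Dusp5.

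Ratios between 2 genes of one library do not depend on how libraries were scaled, and 5 pairs were compared. The log2 ratio of Spry1 to Spry2 FPKM was -0.43, -0.64 and -0.48 in wild type and -1.28, -1.39 and -1.41 in Tespa1-/- libraries, a difference of -0.84. It was lower in every Tespa1-/- library than in any wild type library. The ratio of Spred1 to Spred2 was 0.51 ± 0.10 in wild type and 0.89 ± 0.15 in Tespa1-/- LSKs (SD, n = 3), a difference of 0.38. That of Dusp6 to Dusp5, the cytoplasmic to the nuclear ERK phosphatase, was -0.86 ± 0.07 in wild type and -0.20 ± 0.03 in Tespa1-/- LSKs, a difference of 0.66. The ratio of Dusp4 to Dusp2 differed by -1.49, from -4.29 ± 0.10 to -5.78 ± 0.37. The ratio of Dusp1 to Dusp10 differed by 0.48, and by 0.20 without the third Tespa1-/- library. For all 5 pairs the libraries of the groups did not overlap, with p = 0.1 in a two-sided exact permutation test (0.1 after adjustment over the 5 pairs), which is the smallest p that 3 against 3 libraries allow, so none could pass 0.05.

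**Figure D4:**
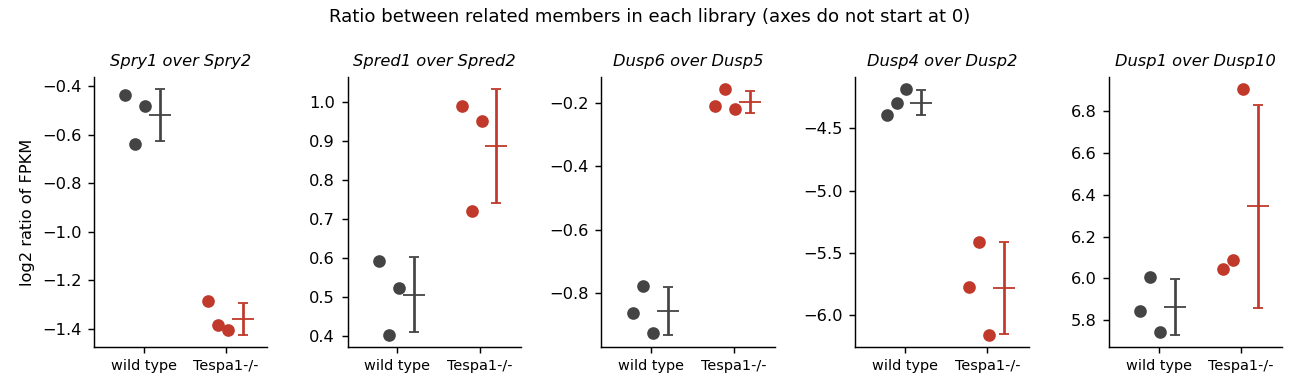
Log2 ratio of the FPKM of 2 related genes in each library (points), with the mean ± SD beside them (n = 3 per group); the axes do not start at 0 and differ between panels. The groups are apart in every panel, and in the last one the third Tespa1-/- library stands at 6.90 with the other 2 at 6.04 and 6.09.

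The start regions of 9 of the 10 genes were read for 5 motifs bound by factors that act in growth factor signalling or at promoters, in windows of 250 bases before to 50 after the RefSeq start (RefSeq, GRCm38.p6). Dusp4 had no entry. The cAMP response element (CRE) letters TGACGT, bound by CREB and ATF factors, stood on either strand in 3 of the 9 windows, those of Dusp1, Dusp5 and Spred2, and in 7.51% of all 32851 windows. The CArG box, bound by the serum response factor, stood in 1 of the 9, that of Dusp5, and in 1.63% of all. CCGGAA, a form of the site bound by ETS factors, stood only in the Spry2 window, after the start, and in 14.9% of all. Other forms of the ETS site were not searched. TGANTCA (AP-1) and TATAAA stood in none of the 9 and in 7.81% and 13.6% of all. The 9 windows were 57.0% to 72.3% G and C, against a median of 52.7% over all windows. Of 9968 tested genes with a window, 1347 held the CRE letters, 150 the CArG box, 3160 CCGGAA, 614 TGANTCA and 868 TATAAA. Of tested genes with the CRE letters 16.3% were called lower, against 19.6% of those with any window. The share was 26.7% with the CArG box, 24.8% with TGANTCA, 20.4% with TATAAA and 13.2% with CCGGAA. The next lines show where these letters lie in the 3 genes whose windows hold the CRE letters. Capitals mark CRE and CArG letters, and each sequence runs 5′ to 3′ on the strand of its gene.
Dusp1, chr17:26508520-26508722, minus strand: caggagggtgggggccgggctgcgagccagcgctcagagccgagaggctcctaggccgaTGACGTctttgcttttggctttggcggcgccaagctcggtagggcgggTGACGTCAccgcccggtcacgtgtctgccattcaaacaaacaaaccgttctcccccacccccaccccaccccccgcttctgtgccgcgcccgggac
Dusp5, chr19:53528895-53529108, plus strand: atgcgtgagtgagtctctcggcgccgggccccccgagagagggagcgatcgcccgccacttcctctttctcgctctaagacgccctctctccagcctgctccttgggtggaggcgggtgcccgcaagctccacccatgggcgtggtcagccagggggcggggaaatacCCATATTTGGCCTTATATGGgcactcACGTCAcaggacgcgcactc
Spred2, chr11:19924378-19924407, plus strand: gccgctgggaagACGTCAtcgcttccgccc
In Dusp1 the first capital run begins 191 bases before the RefSeq start, and the second, a full palindrome in which 2 CRE matches overlap, begins 143 bases before it. In Dusp5 the long run is 2 adjacent CArG boxes, beginning 82 and 72 bases before the start, and the CRE letters follow at 56 bases. In Spred2 the CRE letters begin 52 bases before the RefSeq start, inside an exon of the longer annotated transcript. A match of letters is a description and not a measured site. Dusp1, Dusp5 and Spred2, which hold the CRE letters, had log2 fold changes of -0.23, -1.78 and -1.25. The part of these letters in the fold changes was not tested.

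Other genes of the pathway were read from fixed lists. Of 18 genes of the kinase cascade itself, from receptor adaptors to the kinases, 8 were lower and 3 higher by p alone. Among all tested genes, 31.8% were lower by p alone. Most of the 18 were not called: 3 were called lower and 1 higher, against 19.2% and 14.0% of all tested genes. Their median log2 fold change was -0.14. The 3 were Gab1, a docking protein (10.4 ± 0.570 against 4.24 ± 0.586 CPM, log2 fold change -1.30, SE 0.12), Sos1, which loads RAS with GTP (-0.81, SE 0.07), and Braf (-0.68, SE 0.07). With the length correction Sos1 was at -0.32 and Braf at -0.08 and neither was called, while Map2k2, a MEK gene, was called higher at 0.69. The rise was that of Hras, from 23.7 ± 1.43 to 41.1 ± 3.36 CPM (log2 fold change 0.79, SE 0.08, adjusted p = 1.2e-04). Mapk3, the gene for ERK1, was not called, with a log2 fold change of 0.43.

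Of 7 genes for RAS GTPase-activating proteins, the other brake on RAS, 6 were called lower and none higher, with a median of -0.98. With the length correction 3 were lower and 1, Rasa2, was higher. Those called lower with a mean of at least 100 counts included Nf1 (40.0 ± 3.14 against 19.0 ± 5.58 CPM, log2 fold change -1.08, SE 0.19) and Rasa3 (-0.98, SE 0.37, adjusted p = 0.0499). The Rasa3 libraries overlapped. After the length correction neither Rasa3 (-0.83, adjusted p = 0.0927) nor Nf1, the partner of the SPRED proteins (-0.42, adjusted p = 0.0858), was called. Among the other MAP kinase phosphatases, Sproutys and SPREDs, 3 of the 5 that could be tested were called lower, Spred3 (10.4 against 3.59 CPM, log2 fold change -1.52, SE 0.12), Dusp16, a JNK and p38 phosphatase (-1.15, SE 0.14), and Spry4 (-1.91, SE 0.29), the last named after its values were seen since it has a mean of only 25 counts. Dusp7 and Dusp9 were not called, and Dusp8 and Spry3 were too low to test.

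Of 10 ERK target genes outside the 10 feedback genes, 7 of the 9 tested were called lower and none higher, with a median of -0.99, and all 9 were called lower with the length correction. The largest falls were in Egr1, an immediate early transcription factor (588 ± 4.23 against 85.5 ± 1.79 CPM, log2 fold change -2.78, SE 0.03), Epha2, a receptor tyrosine kinase (8.28 ± 0.436 against 1.55 ± 0.532 CPM, -2.45, SE 0.22), and Etv5, an ETS factor (26.6 ± 2.06 against 7.27 ± 1.23 CPM, -1.87, SE 0.13). Of 12 further immediate early genes, 11 were called lower, with a median of -0.79, and all 12 with the length correction. They included Nr4a1 (507 ± 8.84 against 144 ± 0.802 CPM, -1.81, SE 0.03), Fosb (-1.76, SE 0.06) and Nr4a2 (-1.44, SE 0.09). Egr1, Nr4a1 and Nr4a2 are among the genes the study picked out in Tespa1-/- cells, so they are not independent evidence of a direction. In the JNK and p38 branches, 6 of 9 genes were not called, with a median of -0.39, and by p alone 5 were lower and 1 higher. Mapk14, the gene for p38 alpha, was called lower (-0.83, SE 0.29, adjusted p = 0.0414) with libraries that overlapped between the groups, and was not called with the length correction (-0.75, adjusted p = 0.0640). Mapk11 (-1.42) and the only rise, Mapk13 (2.286 to 8.866 CPM, log2 fold change 1.95, SE 0.14), were named after their values were seen, since both have fewer than 100 counts on average. The difference between the lists was not tested.

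**Figure D5:**
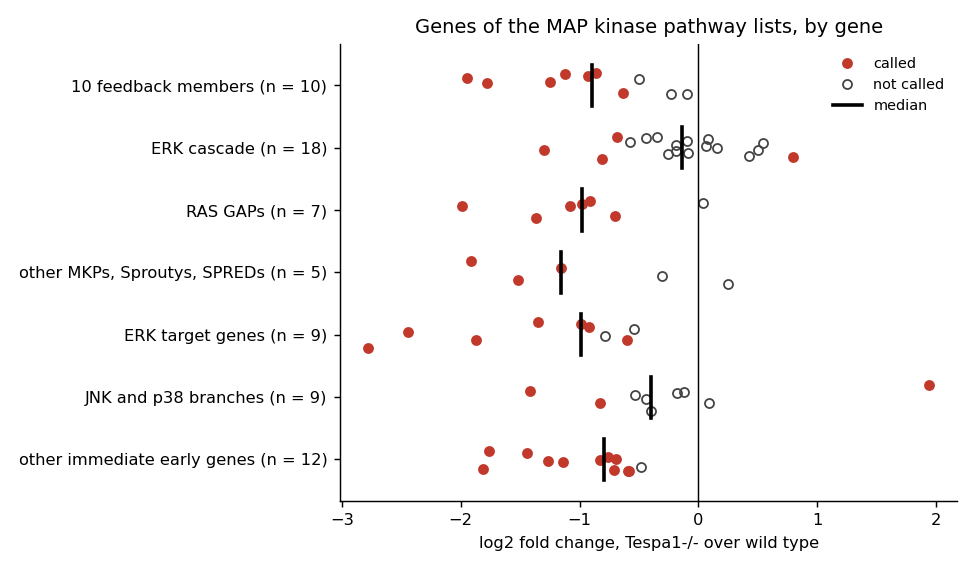
Log2 fold change (Tespa1-/- over wild type) of each tested gene, by list; filled red points were called by adjusted p and fold, open points were not, and the black line is the median of the list. The feedback genes (median -0.89) and the ERK target genes (-0.99) lie below 0, while the ERK cascade genes lie around a median of -0.14.

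The genes most like Dusp1, the most abundant of the 10, in log2 CPM over the 6 libraries were Fam43a, Nbeal2, Zc3h7b, Sdc3 and Wasf2, with a Pearson r from 0.99947 to 0.99996. The libraries form only 2 groups, so a high r is common, and 2050 of 10033 genes had one above 0.95. These 5 genes had log2 fold changes from -1.52 (Sdc3) to -0.71 (Fam43a), all larger than that of Dusp1.

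Some counts may be shared with neighbouring genes. The exons of Dusp5 share 547 bases and those of Spry1 share 710 bases with an annotated transcript on the opposite strand, and those of Dusp1 share 11 bases with Ergic1. The library kit keeps the strand, but whether the counting used it is not given in the sources used here. The partner of Spry1, Gm42922, had 1 to 14 counts in the 6 libraries.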

How the data were processed

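Paired-end, stranded, poly-A selected libraries of LSKs from irradiated mice were sequenced on an Illumina instrument. The submitters' processing notes name CASAVA 1.8, HISAT2, StringTie, edgeR and the build GRCm38, and the counting tool, annotation release and use of strand are not given in the sources used here. The authors deposited read counts per gene, not normalized, and FPKM, which are those counts scaled to gene length and library size. The counts were tested in edgeR 4.0.16 (R 4.3.3) by the quasi-likelihood F-test over all 6 libraries, with TMM factors, filterByExpr, the group as the only term and Benjamini-Hochberg adjustment over 15332 genes. Calls required an adjusted p below 0.05 and more than a 1.5-fold difference. The SE is the log2 fold change divided by the root of F. The length correction adds a centred loess offset (span 0.5) per library on the merged exon length in GENCODE M21, whose coordinates were identical for 54870 of the 55487 genes, the 10 described here among them. The script was tested on simulated counts.

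Genes named from the pathway lists were the 3 largest rises and falls per list among called genes with a mean of at least 100 counts. Some genes that meet this rule are not reported here. The genes, lists and tests were chosen with earlier results of these data known. Libraries of a group differed by more than sampling noise (chi-square per degree of freedom 7.39 to 9.97), so none was counted as a duplicate. Alternatives were other scalings, filters, thresholds and tests (DESeq2 1.42.0, limma 3.58.1 on log2 of FPKM plus 1 or 0.1), each library left out, a replicate block and the length correction. CPM per kilobase of merged exon was added after the data were seen.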

Additional observations from a re-analysis of the deposited data

How the results depend on the processing

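The count of feedback genes called higher was 0 in every analysis, and the count called lower was between 6 and 8 in all 20 alternatives, 6 to 7 with a library left out. Dusp4, Dusp5, Dusp6, Spry1 and Spred2 were called lower in all of them, and no gene changed direction. Dusp10 was called in 10 of the 20, with an adjusted p of 0.0600 in DESeq2 and 0.593 in a test against a fold of 1.5, Spred1 in 19 and Dusp2 in 6. Dusp1 and Spry2 were called in none. The cause of these changes was not tested. With total counts in place of TMM factors the median log2 fold change of all genes shifted to -0.10, and 8 of the 10 genes were called lower. Same-numbered libraries did not deviate together (correlations of 0.05, 0.01 and 0.06), so no pairing by replicate number was seen. A weak pairing could go unseen in this comparison. A fit with the replicate number as a block called 6 of the 10 lower, with Dusp10 at an adjusted p of 0.0678.

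Of 240 counts over the pathway lists, 215 stayed within 1.5 times the main count. With the length correction the ERK cascade had 1 gene lower and 2 higher in place of 3 and 1, the RAS GTPase-activating proteins 3 lower in place of 6, and the JNK and p38 branches 1 lower in place of 2. With limma on FPKM the other phosphatases, Sproutys and SPREDs had 1 lower in place of 3. The JNK and p38 count was 0 with limma without a filter, and 1 without the second or the third library of either group. Without the third wild type library the ERK cascade had 2 higher. Depth limits Dusp10 and Dusp4 most, with as few as 25 and 29 counts in a library.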
